A study of Mus musculus with 6 samples.

Results

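The genes described here mark the oligodendrocyte lineage from precursor to newly formed cell: Olig1, Olig2, Sox10, Pdgfra, Cspg4, Gpr17, Enpp6, Enpp2, Myrf and Bcas1. They were chosen by name as lineage regulators, precursor markers and markers of early differentiation, with earlier results of these data known. All 10 were found among the 18160 genes of the deposited table. All 10 also averaged 10 or more normalized counts in the 6 samples, the filter that left 15151 genes for testing. The table came from RNA sequencing of bulk prefrontal cortex from adult mice (postnatal day 56, C57BL/6J background). The groups were 3 wild-type samples and 3 samples from Cyfip2 heterozygotes, with no treatment named for either. CYFIP2 is a subunit of the WAVE complex, which controls branched actin. The sources used here do not give the kind of Cyfip2 mutation or the sex of the animals. They also do not say whether each sample was 1 animal or a pool. The p-values therefore judge the genotype difference against the spread between these samples only, which may not be the spread between animals.

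Oligodendrocyte precursors persist in the adult cortex, where they divide slowly and respond to platelet-derived growth factor through PDGFRA. The transcription factors OLIG1, OLIG2 and SOX10 act through the whole lineage, and SOX10 helps to switch on MYRF, which drives the myelin genes once a cell leaves the cell cycle. GPR17, ENPP6 and BCAS1 mark steps between the dividing precursor and the myelinating cell, and these states are short-lived. In bulk tissue, fewer cells of a type and less RNA per cell cannot be told apart.

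The genotype was visible in the libraries. Cyfip2 was at 43174 to 45627 normalized counts in the wild-type samples and at 28356 to 29567 in the heterozygous samples, a log2 fold change of -0.63 ± 0.05 (SE) and, by limma-trend, an adjusted p of 0.0027. Samples totalled 36.4 to 37.1 M normalized counts (M, mega), and the lowest values implied a depth of 27.1 to 48.2 M reads, an estimate that was lowest in wild-type sample 3. The 8 markers of cortical excitatory neurons summed to 266955 to 276180 normalized counts in wild type and to 241682 to 257772 in heterozygotes, with no overlap. Camk2a alone, at means of 148999 in wild type and 137736 in heterozygotes, made up most of these sums. Of the 8, 5 lay below wild type and 3 above, with a median log2 fold change of -0.050, and none passed the threshold. Those above were Neurod6, Tbr1 and Fezf2, at 0.01, 0.02 and 0.19. Nrgn, at a log2 fold change of -0.23 ± 0.06, and Cux2, at -0.24 ± 0.07 (SE), had unadjusted limma-trend p values of 0.0019 and 0.0047, smaller than that of any lineage gene. Markers of striatal neurons, which belong to neighbouring tissue, summed to 10019 to 10816 in wild type and to 8633 to 9006 in heterozygotes. Of these 9 markers, 6 lay below wild type and 3 above. The part of either set of neurons in the lineage values was not tested.

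The lineage genes differed widely in abundance. Levels were compared as normalized counts per kilobase of each gene's longest principal transcript. Enpp2 stood highest, with a median over the 6 samples of 2658 per kilobase. Bcas1 followed at 1193 and Olig1 at 1132, and their ranges overlapped. Gpr17 was at 417, Myrf at 361, Sox10 at 286 and Pdgfra at 276, and each overlapped its neighbour in this order. Olig2 was at 215 per kilobase, below Pdgfra in 6 of 6 samples with no overlap. Cspg4 at 82.3 and Enpp6 at 35.3 were the lowest, and neither overlapped the gene above it. Olig1 thus stood far above its close relative Olig2 on the per-kilobase scale, with no overlap in the 6 samples.

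**Figure D1:**
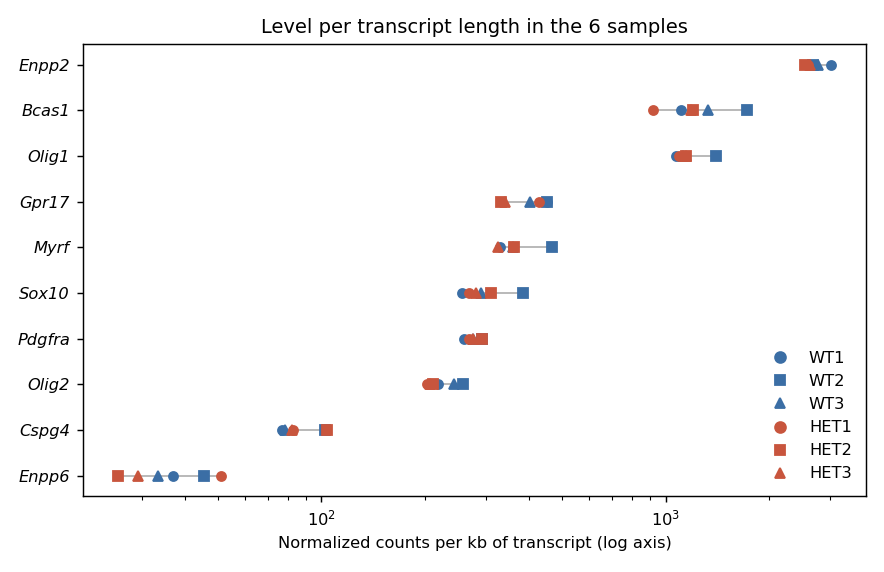
Normalized counts per kilobase of transcript on a log axis for each lineage gene, ordered by the median over 6 samples; blue symbols are wild-type (WT) and red symbols heterozygous (HET) samples, and the grey line is the range. Enpp2 lies between 2542 and 3022 per kilobase and Enpp6 between 25.7 and 51.2.

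The RefSeq promoter table (build GRCm38.p6) held 4 of the 10 genes. The stretch before the annotated starts is shown for 3 of them: Olig2, whose genotypes did not overlap, and Pdgfra and Enpp6, which varied least and most over the samples. Capitals mark matches on either strand to 3 motifs. These are the CCAAT box, the E-box CANNTG that helix-loop-helix factors such as OLIG1 and OLIG2 can bind, and the core bound by SOX proteins, searched as ACAAAG and in the variant form ACAATG. All run 5′ to 3′ on the plus strand, and no matches overlapped.
Olig2, chr16:91225300-91225456: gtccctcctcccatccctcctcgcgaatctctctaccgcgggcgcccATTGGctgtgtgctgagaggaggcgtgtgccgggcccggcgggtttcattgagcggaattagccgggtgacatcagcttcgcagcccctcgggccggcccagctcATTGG
Pdgfra, chr5:75152001-75152250: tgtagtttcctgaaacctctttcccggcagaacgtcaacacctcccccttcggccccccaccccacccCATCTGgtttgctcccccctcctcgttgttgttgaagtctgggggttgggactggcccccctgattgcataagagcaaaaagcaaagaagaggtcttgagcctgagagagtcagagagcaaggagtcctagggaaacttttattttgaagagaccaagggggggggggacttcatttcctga
Enpp6, chr8:46986637-46986886: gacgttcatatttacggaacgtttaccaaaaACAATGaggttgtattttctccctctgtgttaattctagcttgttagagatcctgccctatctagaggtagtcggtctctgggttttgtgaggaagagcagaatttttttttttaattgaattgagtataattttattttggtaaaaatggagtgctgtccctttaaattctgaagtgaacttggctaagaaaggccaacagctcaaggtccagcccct
The Olig2 stretch was 66.9% G and C and held 2 CCAAT matches. At least 1 such match was found in 21.0% of all 32851 promoter windows cut to that length. The Pdgfra stretch was 54.4% G and C and held 1 E-box, a motif found in 66.2% of windows of that length. The Enpp6 stretch was 38.4% G and C and held 1 SOX core, found in 25.2% of windows of that length.

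The 4 lineage transcription factors had lower means in heterozygotes than in wild type, and of the 4 the genotypes separated for Olig2 alone. Olig2, the factor that specifies the lineage, was at 553, 653 and 615 normalized counts in wild-type samples 1 to 3 and at 514, 533 and 525 in heterozygous samples 1 to 3. Every heterozygous value of Olig2 lay below every wild-type value. The means of Olig2 were 607 ± 50.4 and 524 ± 9.68 (SD, n = 3 each), a heterozygous level of 86.4% of wild type. By limma-trend, the log2 fold change of Olig2 was -0.21 ± 0.08 (SE) and its adjusted p 0.95. The exact two-sided permutation p of Olig2 was 0.1, and 2 groups of 3 samples cannot give a smaller one. Olig2 lies on chromosome 16 at 91225457 to 91228677 (plus strand, GRCm38).

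Olig1, its neighbour and a factor for oligodendrocyte maturation, starts 41094 bases beyond the end of Olig2 (91269772 to 91271933). Olig1 was at 2319, 3029 and 2424 normalized counts in wild-type samples 1 to 3 and at 2359, 2473 and 2485 in heterozygous samples 1 to 3. Wild-type sample 2 was high and the other 5 samples of Olig1 lay within 2319 to 2485, so the genotypes overlapped. The log2 fold change of Olig1 was -0.08 ± 0.09 (SE), and it was 0.040 without wild-type sample 2. For Olig2 the fold change without that sample was -0.15.

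Sox10 (chromosome 15, 79154908 to 79165240) had its highest value in the same library. It was at 713, 1068 and 808 normalized counts in wild type and at 745, 864 and 781 in heterozygotes. Myrf (chromosome 19, 10208272 to 10240748), the activator of myelin genes, was at 1101, 1567 and 1207 in wild type and at 1202, 1208 and 1085 in heterozygotes. In both genes wild-type sample 2 stood above the other 5 samples, which overlapped between genotypes. Wild-type sample 2 exceeded the mean of the other 2 wild-type samples by 1.40-fold for Sox10 and 1.36-fold for Myrf. The log2 fold changes were -0.10 ± 0.13 for Sox10 and -0.13 ± 0.12 for Myrf (SE). Without wild-type sample 2 they were 0.067 and 0.014.

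**Figure D2:**
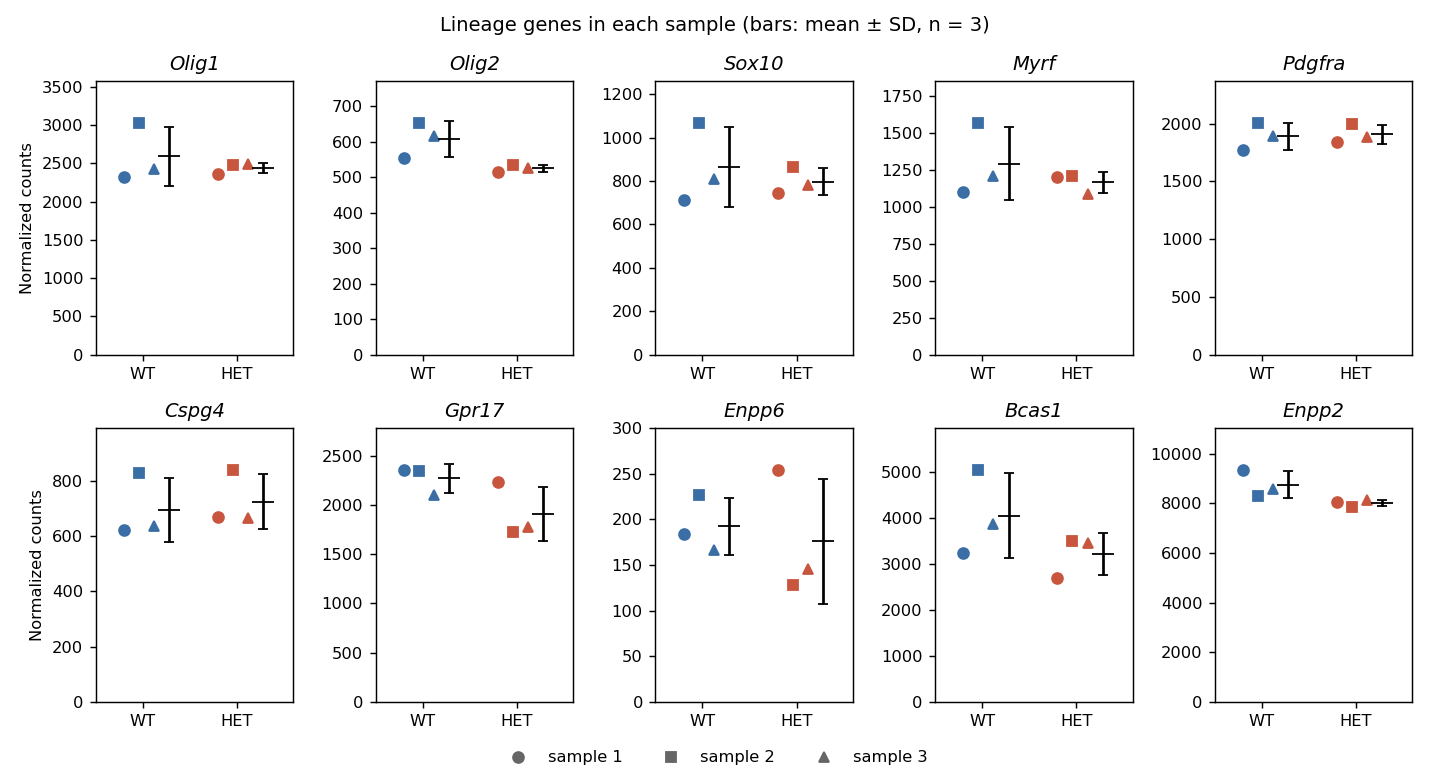
Normalized counts (vertical axis, from 0) of the 10 lineage genes in each wild-type (WT, blue) and heterozygous (HET, red) sample, with the mean ± SD of 3 samples beside the points. Square symbols are sample 2 of each genotype; the wild-type one is the highest of all 6 samples for Olig1, Olig2, Sox10, Myrf, Pdgfra and Bcas1.

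The genes of the precursor surface proteins overlapped widely between genotypes. Pdgfra (chromosome 5, 75152292 to 75198215), the growth factor receptor that defines precursors, was at 1775, 2007 and 1888 normalized counts in wild type and at 1837, 1999 and 1881 in heterozygotes. The ranges lay almost on top of each other, and the highest of the 6 values was 1.13 times the lowest, the narrowest span among the 10 genes. The log2 fold change of Pdgfra was 0.01, with a 95% confidence interval of -0.13 to 0.16, that is 0.911- to 1.12-fold. Without wild-type sample 1 it was -0.031 and without heterozygous sample 2 it was -0.022. Meningeal and perivascular fibroblasts also express Pdgfra: 11 of their 12 listed markers lay above wild type, none was at 0, and they summed to 6841 to 8166 normalized counts in wild type and 7723 to 8974 in heterozygotes. Among them Dcn was at 392 ± 24.8 and 416 ± 21.9, and Col1a1 at 443 ± 63.9 and 442 ± 63.8 (SD, n = 3 each). The lowest p values of the 12 belonged to Slc6a20a, at a log2 fold change of 0.33 ± 0.08, and Ogn, at 0.21 ± 0.09 (SE). The genotypes did not overlap for either, and by limma-trend the adjusted p values were 0.73 and 0.95. These were the 2 of the 12 without overlap (16.7%), against 10.5% of all genes tested. The part of these fibroblasts in the Pdgfra level was not tested.

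Cspg4 (chromosome 9, 56865033 to 56899870), which encodes the NG2 proteoglycan of precursors and pericytes, was at 624, 829 and 636 normalized counts in wild type and at 669, 841 and 667 in heterozygotes. Sample 2 of each genotype was high, and the other 4 samples lay between 624 and 669. By limma-trend, the log2 fold change of Cspg4 was 0.06 ± 0.13 (SE), and its 95% interval ran from -0.22 to 0.35. Leaving out wild-type sample 2 gave 0.20, leaving out heterozygous sample 2 gave -0.047 and leaving out wild-type sample 1 gave -0.0090. The 8 pericyte markers summed to 7017, 9078 and 8686 in wild type and to 8034, 9492 and 8532 in heterozygotes, so the same 2 samples had the highest sums; 6 of the 8 lay above wild type and none was at 0. Pdgfrb was at 951, 1312 and 1081 in wild type and at 1090, 1346 and 1176 in heterozygotes, in the same order of samples 2 against 1 and 3. For Rgs5, another pericyte marker, the log2 fold change was 0.09 ± 0.12 (SE). The part of pericytes in the Cspg4 level was not tested.

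Of the genes of the committed and early differentiating stage, Bcas1 and Gpr17 had the largest log2 fold changes of the 10 in size, and Enpp6 and Bcas1 had the widest ranges on the log2 scale. Gpr17, a receptor that peaks in committed precursors and must be shut off for maturation, lies on chromosome 18 at 31942997 to 31949636. It was at 2357, 2349 and 2103 normalized counts in wild type and at 2229, 1725 and 1773 in heterozygotes. Heterozygous samples 2 and 3 lay below all other samples, while heterozygous sample 1 lay inside the wild-type range. Gpr17 was at 2270 ± 145 in wild type and 1909 ± 278 in heterozygotes (SD, n = 3 each), 84.1% of wild type. By limma-trend, its log2 fold change was -0.26 ± 0.10 (SE) and its adjusted p 0.94, the smallest p of the 10 genes. Gpr17 lies inside Lims2 on the opposite strand and shares 188 exon bases with it. The library kit keeps strand, but the sources used here do not say whether strand entered the counting. Reads of this overlap therefore cannot be assigned with certainty. Lims2 itself was at 420, 493 and 459 in wild type and at 464, 335 and 400 in heterozygotes, and its lowest value also came from heterozygous sample 2.

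Enpp6 (chromosome 8, 46986887 to 47096762), a choline phosphodiesterase of newly forming oligodendrocytes, was at 184, 227 and 166 normalized counts in wild type and at 254, 128 and 146 in heterozygotes. The heterozygous samples held both the highest and the lowest value of Enpp6, 1.99-fold apart, and the wild-type samples lay between them. The SD was 38.9% of the mean in heterozygotes and 16.1% in wild type. The lowest sample held about 122 reads by the implied depth, where counting alone gives 9.05%. The log2 fold change was -0.18 ± 0.23 (SE), with a 95% interval of -0.70 to 0.34. It was -0.48 without heterozygous sample 1 and 0.014 without heterozygous sample 2.

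Bcas1 (chromosome 2, 170346991 to 170427845), a myelin-associated protein of early, actively myelinating cells, was at 3241, 5041 and 3862 normalized counts in wild type and at 2686, 3505 and 3452 in heterozygotes. Wild-type sample 2 was the highest and heterozygous sample 1 the lowest, and the groups overlapped because wild-type sample 1 lay below heterozygous samples 2 and 3. The mean heterozygous level was 79.4% of wild type, the lowest share of the 10 genes. By limma-trend, the log2 fold change of Bcas1 was -0.32 ± 0.15 (SE) and its adjusted p 0.95. Leaving out wild-type sample 2 gave -0.15, leaving out heterozygous sample 1 gave -0.19 and leaving out wild-type sample 1 gave -0.47. In heterozygous sample 1, Bcas1 was thus at its lowest where Enpp6 was at its highest, so these stage markers did not follow a common order of samples.

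Enpp2 encodes autotaxin, a secreted enzyme that makes lysophosphatidic acid and is produced by oligodendrocytes, choroid plexus and vessels. The gene lies on chromosome 15 at 54838901 to 54952892. It was at 9353, 8317 and 8595 normalized counts in wild type and at 8047, 7868 and 8138 in heterozygotes. Every heterozygous value lay below every wild-type value. Unlike in Olig2, wild-type sample 2 was the lowest wild-type sample. Enpp2 was at 8755 ± 537 in wild type and 8018 ± 138 in heterozygotes (SD, n = 3 each), 91.6% of wild type. By limma-trend, its log2 fold change was -0.13 ± 0.06 (SE) and its adjusted p 0.95. The two-sided exact permutation p of Enpp2 was again 0.1. Without wild-type sample 1 the fold change was -0.077 and without wild-type sample 2 it was -0.16. Choroid plexus also expresses Enpp2 abundantly. Its 9 listed markers summed to 158 to 218 normalized counts in wild type and 212 to 321 in heterozygotes. Kcne2 was at 0 in wild-type sample 2 and Slc4a5 in heterozygous sample 3. Of the 5 that were tested, 3 lay above and 2 below wild type. Ttr, the main choroid plexus transcript, was at 8.43, 66.4 and 71.6 in wild type and at 64.3, 174 and 111 in heterozygotes, with a higher mean in heterozygotes, where Enpp2 was lower. Folr1, another of these markers, was at 16.3 ± 4.06 in wild type and 8.20 ± 1.27 in heterozygotes (SD, n = 3 each), lower in heterozygotes as Enpp2 was. The part of choroid plexus in the Enpp2 values was not tested.

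**Figure D3:**
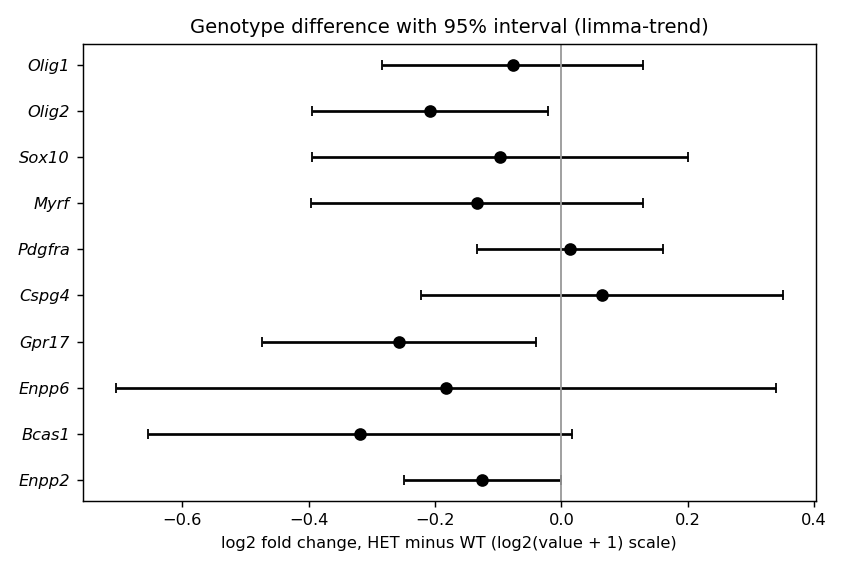
Log2 fold change of heterozygotes against wild type for each lineage gene (points) with the 95% interval of limma-trend (bars), on the log2(value + 1) scale. The intervals of Olig2, Gpr17 and Enpp2 end below 0, before adjustment over all genes, and that of Pdgfra is among the narrowest, from -0.13 to 0.16.

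By limma-trend, none of the 10 lineage genes reached an adjusted p under 0.05, against 0.0132% of all genes tested (2 of 15151). Their adjusted p values lay between 0.94 and 1.00. At an unadjusted p under 0.05 there were 3 of 10 (Gpr17, Olig2 and Enpp2, all lower in heterozygotes), against 5.07% of all genes. The genotypes did not overlap in 2 of 10 (Olig2 and Enpp2), against 10.5% of all genes, and in 5.3% of all genes every heterozygous sample lay below every wild-type sample. Of the 10, 8 lay below wild type and 2 above (Pdgfra and Cspg4), and the median log2 fold change was -0.13. Over all genes tested, 7450 lay below and 7701 above, and their median was 0.0020. When wild-type sample 2 was left out, 5 of the 10 lay above wild type and the median was -0.023. Without wild-type sample 1, all 10 lay below and the median was -0.22. At an unadjusted p under 0.05 there was no lineage gene without heterozygous sample 3, against 4.91% of all genes in the same fit. There were 2 (Olig2 and Bcas1) without wild-type sample 1, against 5.74%, and 2 (Gpr17 and Enpp6) without heterozygous sample 1, against 4.7%. There was 1 (Enpp2) when wild-type sample 2 was left out, against 7.07%, 1 (Gpr17) when wild-type sample 3 was left out, against 3.46%, and 1 (Bcas1) when heterozygous sample 2 was left out, against 4.46%. In limma without a trend, Olig2 alone of the 10 had an unadjusted p under 0.05, against 4.99% of all genes, and the p was 0.067 for Gpr17 and 0.10 for Enpp2. In limma with robust shrinkage there were 2 (Olig2 and Gpr17), against 4.98%.

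**Figure D4:**
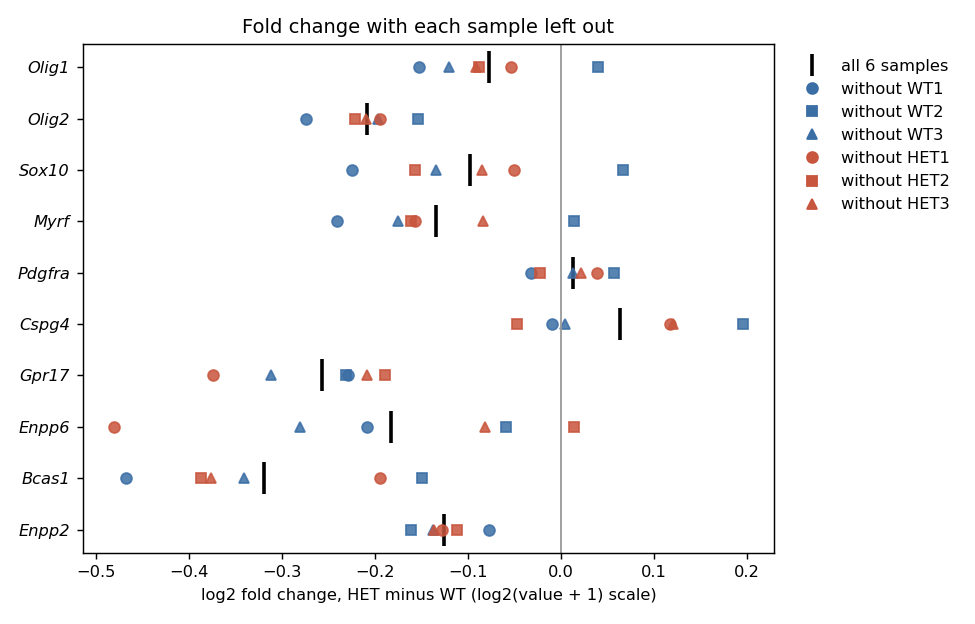
Log2 fold change of each lineage gene (horizontal axis, log2(value + 1) scale) with all 6 samples (black bar) and with each sample left out (blue: a wild-type sample left out; red: a heterozygous one). Without wild-type sample 2 Olig1, Sox10 and Myrf move to the right of 0, at 0.040, 0.067 and 0.014, and Olig2, Gpr17, Bcas1 and Enpp2 stay to the left of 0 whichever sample is left out.

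Wild-type sample 2 stood apart from the other samples in the lineage genes. It held the highest of the 6 values for 6 of the 10 lineage genes (Olig1, Olig2, Sox10, Myrf, Pdgfra and Bcas1), against 16.1% of all genes tested. Averaged over the 10 genes, wild-type sample 2 lay 0.25 above the 6-sample mean on the log2 scale, and the other 5 samples lay between -0.11 and -0.0047. For mature myelin genes this library was also the highest of the 6 samples in 20 of 24 cases, with a mean deviation of 0.32. Striatal neuron markers also had their highest mean deviation there, at 0.30, and were highest in that library for 5 of 9 genes. Pericyte, astrocyte and microglial markers deviated by 0.10 each in wild-type sample 2. They deviated further in wild-type sample 1, by -0.17, -0.18 and -0.14. The part of dissection or of other cells in this library's lineage values was not tested.

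**Figure D5:**
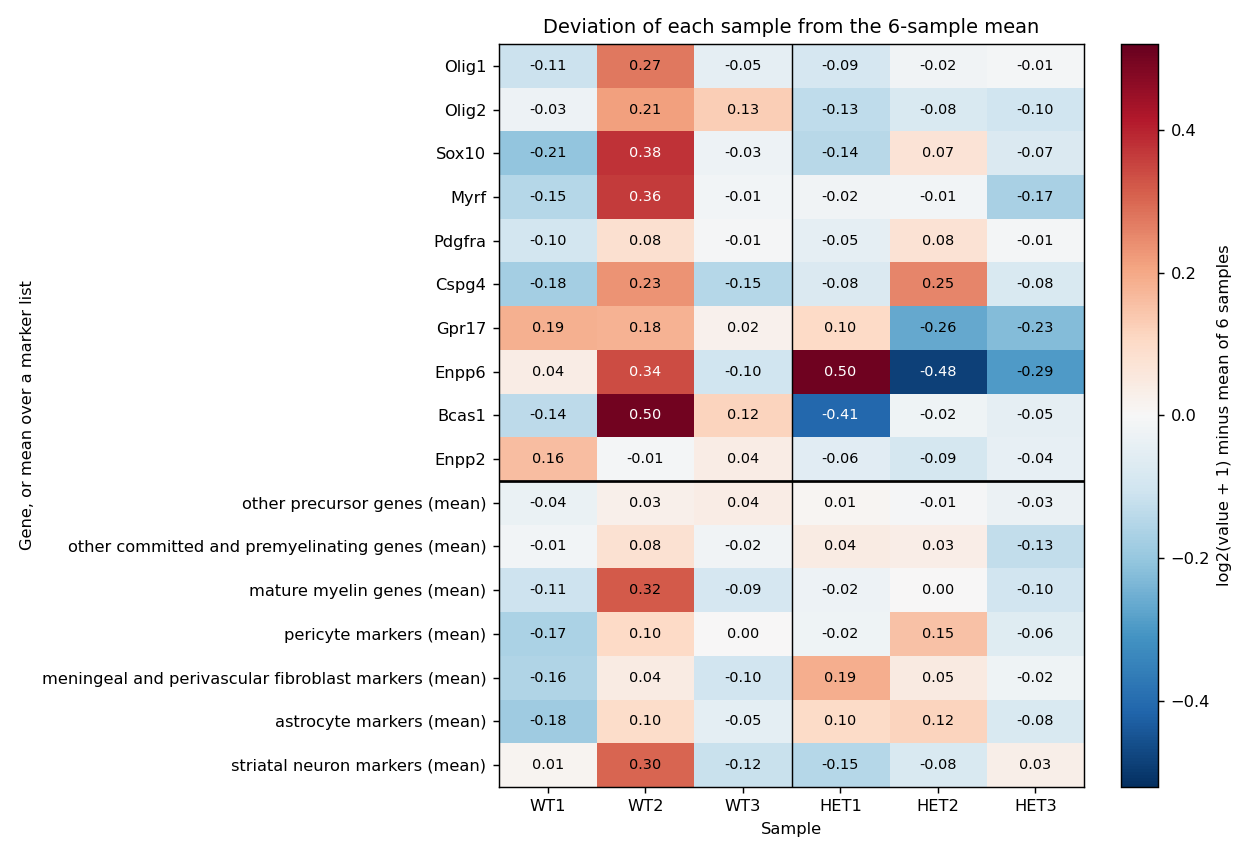
Deviation of log2(value + 1) from the 6-sample mean for each lineage gene (rows above the line) and averaged over marker lists (rows below), in wild-type (WT1 to WT3) and heterozygous (HET1 to HET3) samples; red is above and blue below the mean. Wild-type sample 2 reaches 0.50 for Bcas1 and 0.32 for the mean of mature myelin genes, and Enpp6 runs from -0.48 to 0.50 within the heterozygous samples.

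The rest of the lineage was described from lists of related genes. Of 15 other precursor genes tested, 8 lay above and 7 below wild type, and their median log2 fold change was 0.0060. None passed the threshold. The lowest p values belonged to Susd5, at -0.30 ± 0.13, and Ptprz1, at 0.08 ± 0.06 (SE). Susd5 was at 415, 396 and 371 normalized counts in wild type and at 363, 256 and 352 in heterozygotes, which did not overlap. It was the only such gene of the 15 (6.67%), against 10.5% of all genes tested. Wild-type sample 2 was the highest sample for 4 of the 15, and their mean deviation there was 0.03. Several of these genes, among them Ptprz1 and Tnr, are also expressed by astrocytes or neurons. Of 12 other committed and premyelinating genes, 4 lay above and 8 below, and the median was -0.030. Lims2, at -0.20 ± 0.12, and Tns3, at -0.09 ± 0.08 (SE), had the smallest p values. None of the 12 passed.

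Mature myelin genes lay below wild type for 19 of 24. Their median was -0.082, and none passed. Mog, a late myelin surface protein, was at 1812, 2059 and 1479 normalized counts in wild type and at 1606, 1585 and 1381 in heterozygotes. Mbp, a main protein of compact myelin, was at 56607, 78883 and 56542 in wild type and at 52142, 57726 and 54237 in heterozygotes. Without wild-type sample 2, 16 of the 24 lay above wild type and the median was 0.047. The ratio of Pdgfra to Mog, a precursor marker against a late one, was 0.980, 0.975 and 1.28 in wild type and 1.14, 1.26 and 1.36 in heterozygotes, as normalized counts without length correction. The genotypes overlapped in this ratio, with an exact two-sided permutation p of 0.3. The ratio of Gpr17 to Pdgfra was 1.33, 1.17 and 1.11 in wild type and 1.21, 0.863 and 0.942 in heterozygotes, also with an exact p of 0.3.

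Among 18 other regulators of the lineage tested, 8 lay above and 10 below wild type, with a median of -0.018, and none passed. Id4, an inhibitor that binds the partners of helix-loop-helix factors and holds back differentiation, was at 809, 918 and 842 normalized counts in wild type and at 1009, 1102 and 990.2 in heterozygotes. The genotypes did not overlap for Id4, nor in all for 3 of the 18 (16.7%), against 10.5% of all genes tested. By limma-trend the log2 fold change of Id4 was 0.27 ± 0.08 (SE) and its adjusted p 0.74. Hes5, a target of Notch signalling, was at 216, 197 and 240.0 in wild type and at 139, 191 and 184 in heterozygotes, with a log2 fold change of -0.35 ± 0.15 (SE). Both Id4 and Hes5 are also expressed by astrocytes, whose 9 markers lay above wild type for 8. The summed astrocyte markers were at 180048 to 211739 in wild type and 192037 to 210951 in heterozygotes, with none at 0. Their part in these values was not tested.

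Of 26 ligands, receptors and relatives around these genes, 12 lay above and 14 below wild type, with a median of -0.0088, and none passed. Pdgfa, the ligand of PDGFRA, had a log2 fold change of -0.04, with a 95% interval of -0.17 to 0.10, and Lpar1, a receptor for the product of autotaxin, had 0.02, with an interval of -0.20 to 0.24. These 2 were named for their roles. The lowest p values belonged to Enpp1, a phosphodiesterase of the same family as Enpp2, and Ncan, a proteoglycan of the extracellular matrix. Enpp1 was at 232, 263 and 244 normalized counts in wild type and at 209, 187 and 214 in heterozygotes, with a log2 fold change of -0.28 ± 0.11 (SE). Ncan was at 10083, 10677 and 9893 in wild type and at 9115, 9486 and 9406 in heterozygotes, with a log2 fold change of -0.13 ± 0.05 (SE). The genotypes did not overlap for either, and by limma-trend both adjusted p values were 0.95. These were the 2 of the 26 without overlap (7.69%), against 10.5% of all genes tested.

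Genes with the most similar pattern over the 6 samples were found by the root-mean-square difference of their log2 deviations, among 13312 tested genes with a mean of at least 50. For the mean of the 10 lineage genes, whose own root-mean-square deviation was 0.118, the 5 nearest were Rhov, Chaf1a, Slc4a2, Acy1 and Smtn, at 0.023 to 0.033. Olig1, the nearest lineage gene and part of that mean, came at place 47. For Myrf, the nearest lineage gene was Sox10, at place 44. Sox10 was nearest to Tmem88b, at 0.032, with Myrf at place 43. The nearest genes of the remaining lineage genes were Rarg for Olig1, Scrt1 for Olig2, Tmem234 for Pdgfra, Mphosph9 for Cspg4, Gm20518 for Gpr17, Trpv4 for Enpp6, Naa16 for Bcas1 and Senp5 for Enpp2. For Pdgfra and Enpp2, which varied least, the nearest lineage gene came only at places 4005 and 7352. With 6 samples, many genes share any given pattern.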

How the data were processed

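The authors deposited 1 table of normalized signal per gene (normalized counts), in which read estimates were scaled by unstated factors; it holds no raw counts. Per the submitters' processing notes, Salmon 0.11.2, R 3.6.0, DESeq2 1.19.11 and build GRCm38 were used, with no role given for each. The library kit keeps strand and selects poly(A) RNA, per the labels' protocols. Low values clustered at steps of 0.768 to 1.36 normalized counts per read, which gave the implied depth. Within 0.1 reads, 80.7% to 86.5% of values near 1 and 2 reads but 21.1% to 42.3% of values at 10 to 20 reads were whole, so reads were not recovered, no count model was used and the test for normalized values was run.

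Symbols came from GENCODE: 18122 of 18160 identifiers matched. The test was limma-trend (limma 3.58.1, R 4.3.3) on log2(value + 1) (genotype as the only term, mean of at least 10 over 6 samples, Benjamini-Hochberg over all genes tested, threshold 0.05). Fold changes on this scale understate those of low genes. Exact permutation tests were two-sided. The procedure was tested on simulated data. Replicates of a genotype differed by more than counting noise (mean chi-square per gene 8.96 to 24.4). The 10 genes and the lists were chosen with earlier results of these data known. Named were the 10 genes, the 2 smallest-p members of each list that bear on them, and defining markers of cells also expressing them. Susd5, Enpp1, Ncan, Id4, Hes5, Lims2, Tns3, Ptprz1, Slc6a20a and Ogn came from that rule, Pdgfa and Lpar1 from their role. Alternatives were the filter, the pseudocount (0.5 and 5), a trimmed-mean rescaling, limma without a trend or with robust shrinkage, a block for the sample number, and each sample left out. The gene nearest to Myrf in pattern is not reported here.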

Additional observations from a re-analysis of the deposited data

How the results depend on the processing

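None of the 10 lineage genes passed the threshold under any of the 14 alternatives, and the smallest adjusted p among them was 0.25 by limma, for Bcas1 with the replicate block. Without the block it was 0.64, for Enpp2 without wild-type sample 2. Of 140 fold changes recomputed, 132 kept their sign. The 8 that did not all came from leaving out a sample. Over the samples left out in turn, the log2 fold change ran from -0.15 to 0.040 for Olig1, from -0.22 to 0.067 for Sox10, from -0.24 to 0.014 for Myrf, from -0.031 to 0.057 for Pdgfra, from -0.047 to 0.20 for Cspg4 and from -0.48 to 0.014 for Enpp6. The sign changed without wild-type sample 2 for Olig1, Sox10 and Myrf, without wild-type sample 1 for Pdgfra and Cspg4 (-0.0090), and without heterozygous sample 2 for Pdgfra (-0.022), Cspg4 and Enpp6. Over all genes, 2 passed in the main fit. There was 1 with a mean of at least 50, 1 in limma without a trend and 1 to 4 with a sample left out. The 1 gene in limma without a trend was higher in heterozygotes, so Cyfip2, which was lower, did not pass there. The cause of these changes was not tested. Same-numbered samples deviated together with r = 0.132, 0.124 and -0.0052 over genes, and pairs with different numbers ran from -0.164 to 0.046. This check cannot tell whether same-numbered samples share more than a number. Of the 6 samples, those numbered 1 and 2 correlated best with their own number. With the number as a replicate block, 0 of the 10 and 2 of all genes passed. An unadjusted p under 0.05 was found for 4 of the 10, against 1363 of 15151 genes in the same fit. The gene gained was Bcas1, whose unadjusted limma p went from 0.060 to 0.0014. Depth limits Enpp6 most, at about 122 to 284 implied reads.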
